A study of Mus musculus with 2 samples.

Results

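The messenger RNAs described here encode the cytoskeleton of a mouse cytotoxic T lymphocyte (CTL), the T cell that kills infected or tumour cells on contact. The members are 44 named genes of the actin filament system, its links to the membrane, vimentin and the tubulins. The list is one of names, with no threshold on values, but it was chosen with earlier results of these data known. In the annotation used here 39 of them had a probe, of 19316 named genes in the table, and 5 (Actr2, Arpc3, Arpc4, Cfl1 and Tuba1a) are not analysed here. RNA was taken from extracellular vesicles, the small membrane particles that cells release, in 2 fractions of CTL culture medium. Both fractions came from CTL cultured for 7 days, whose medium was passed over a 750 kDa ultrafilter and then over a DEAE column, an anion exchanger that holds negatively charged particles and lets them go as salt rises. The fraction eluted with 0.5 M NaCl is set against the fraction eluted with 0.3 M NaCl, with 1 single-colour array each, in a study of how vesicles can be prepared by their charge. The sources used here do not give the mouse strain, sex, age, stimulus or the number of preparations per fraction.

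Actin filaments grow from globular actin (Actb, Actg1). The Arp2/3 complex starts side branches when WASP or WAVE proteins switch it on, and these in turn answer to the small GTPases Cdc42 and Rac. Profilin and thymosin hold actin monomers, cofilin, helped by coronins, takes old filaments apart, capping protein stops growth, and nonmuscle myosin pulls on the mesh. In a CTL the actin sheet clears from the centre of the contact with a target cell, and microtubules, built of alpha and beta tubulin, turn their organising centre towards it so that granules can be released there. Talin, vinculin, filamin and the ERM proteins (ezrin, radixin, moesin) tie the filaments to the plasma membrane, from which some vesicles bud.

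With 1 array for each fraction there is no replicate, no test and no p-value, so the differences hold for these 2 arrays alone. A difference is the log2 intensity at 0.5 M minus that at 0.3 M, after each array was centred on its median over the 16154 probes with a value on both arrays. Centring took out a shift of -0.30. Genes dimmer than the median gene on both arrays were left out, and 7446 genes were kept, among them 32 of the 39 members with a probe. A value is present for 71.3% of the 23473 probes at 0.5 M and 80.8% at 0.3 M, and the reason for empty cells is not known. The only error that could be estimated was the SD between different probes of the same gene, 0.55 over 358 kept genes and 0.44 over the 66 genes with several probes that had an intensity of 50 or more on both arrays. Variation between preparations is not part of it. Of the members, only Arpc1b and Dock2 had 2 probes.

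All 39 members with a probe had a value in both fractions, and 29 of the 32 kept members differed by less than 2-fold between them. The 32 kept members had a median difference of 0.42, with 24 above 0 and 8 below, beside a median of 0.08 and 55.9% above 0 over all kept genes. As deposited 19 members were above 0, against 34.4% of all kept genes, and 18 were with quantile normalization and with loess, against 49.99% and 49.93%. The members' median was 0.12 with the values as deposited, 0.22 with quantile normalization and 0.08 after a loess trend of the difference on intensity was removed. The medians of all kept genes in these settings were -0.22, 0 and -0.0017. A change of 2-fold or more was found for 3 kept members. Tln1 and Rac2 were higher at 0.5 M, and Wipf1 was lower. That is 2 of 32 members higher and 1 of 32 lower, against 5.24% of all kept genes at least 2-fold higher and 2.35% at least 2-fold lower. The members' share past 2-fold, 9.38%, was near the 7.59% of all kept genes. With each of the other scalings 1 member was at least 2-fold higher (Tln1) and 1 lower (Wipf1). Over all kept genes these shares were 1.63% higher and 7.78% lower as deposited, 3.32% and 3.82% with quantile normalization, and 3.17% and 3.95% with loess.

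**Figure D1:**
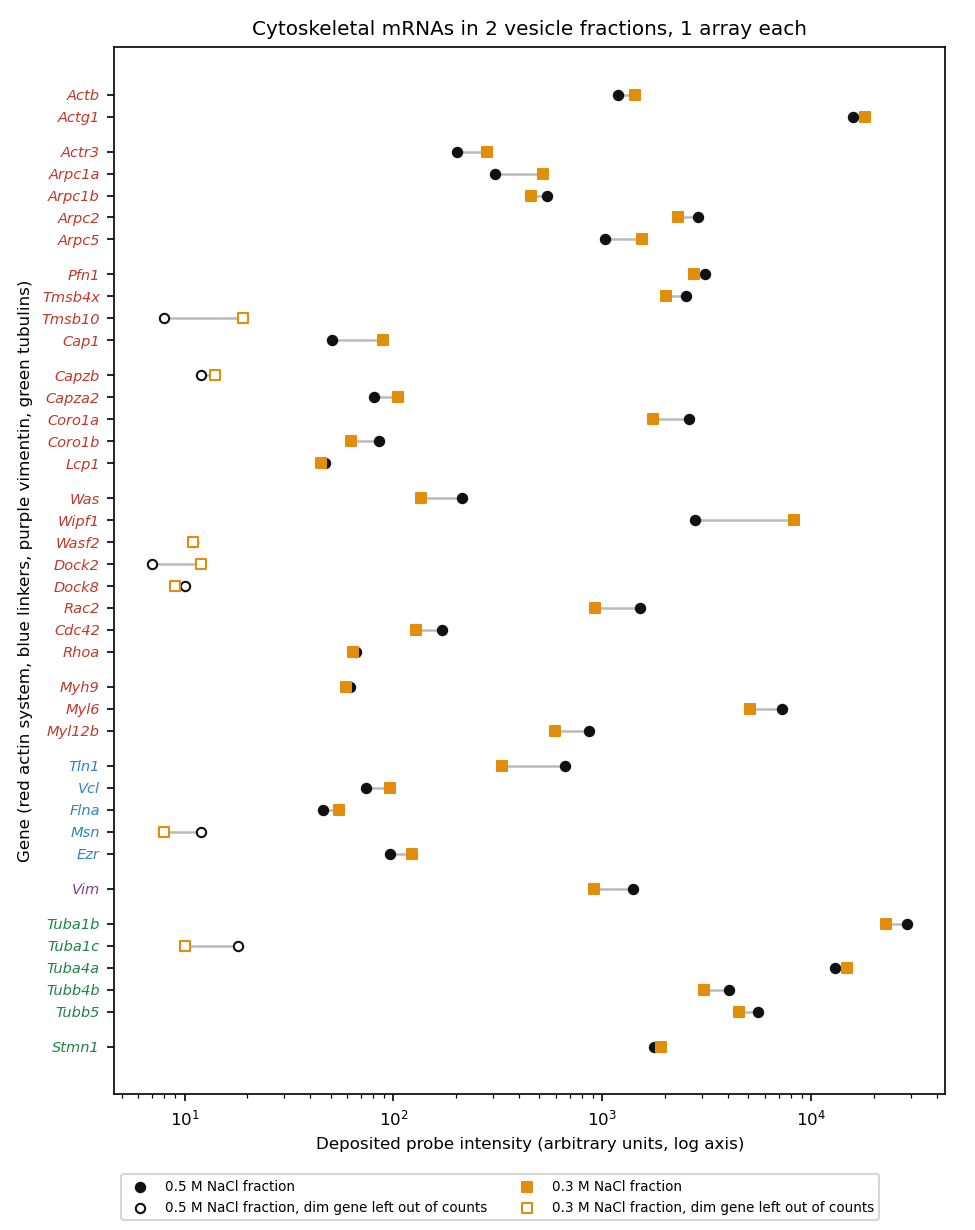
Deposited intensity of each measured member (log axis, arbitrary units) in the 0.5 M NaCl fraction (black circles) and the 0.3 M NaCl fraction (orange squares), with 1 array each and a grey line joining the pair. Open symbols mark the 7 dim genes left out of the counts. Wasf2 had an intensity of 11 on both arrays, so its symbols overlap. Wipf1, at 2792 and 8328, has the longest line among the filled symbols.

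Intensity itself moved with the difference. Among the brightest 10% of kept genes (745 genes by mean log2 intensity on both arrays) the median difference was 0.46, and in the dimmest 10% it was -0.04. The members are mostly bright, with 17 of the 32 in the brightest 10%. Those 17 had a median of 0.63, which became 0.04 with the loess trend removed, and 10 of the 17 were above 0.46. The other 15 kept members had a median of 0.34, beside 0.05 for the 6701 kept genes outside the brightest 10%. The part that intensity has in the members' positive median was not tested beyond these values.

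Directions were therefore read over 4 scalings (centred, as deposited, quantile and loess). In all 4, 17 kept members were higher at 0.5 M (53.1%) and 8 were lower (25.0%), and 7 changed direction. Over all kept genes 33.6% were higher in all 4 and 44.1% were lower. Among the brightest 10% of kept genes these shares were 50.5% and 29.0%, and 9 and 2 of the 17 bright members fell in them. Outside the brightest 10% they were 31.7% and 45.7%, and 8 and 6 of the 15 other members did.

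**Figure D2:**
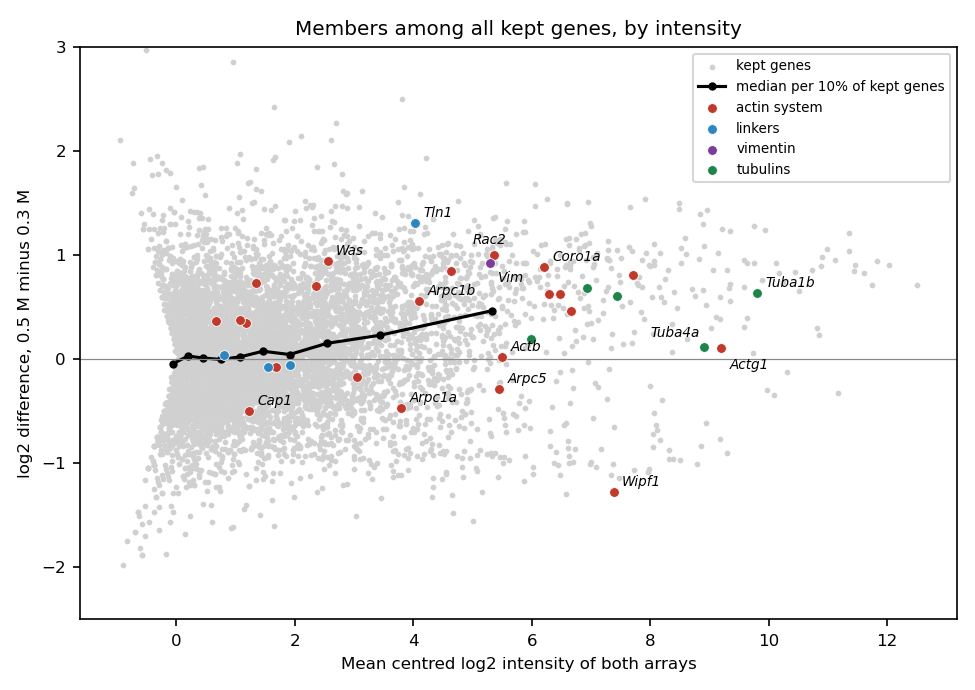
Centred log2 difference (0.5 M minus 0.3 M) against the mean centred log2 intensity of both arrays for the 7446 kept genes (grey, 1 beyond the drawn range), with the kept members coloured by system. The black line joins the medians of 10% steps of intensity and ends at 0.46 in the brightest. Tln1 and Wipf1 lie farthest from 0 among the members, at 1.31 and -1.28.

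The actin genes themselves were nearly level between the fractions when centred, and lower at 0.5 M in the other scalings. Actb, cytoplasmic beta-actin, had an intensity of 1184 at 0.5 M and 1437 at 0.3 M. Actg1, cytoplasmic gamma-actin, had 15828 at 0.5 M and 18157 at 0.3 M. Both were thus lower at 0.5 M as deposited, and after centring they differed by 0.02 and 0.10. With quantile normalization they stood at -0.36 and -0.52, and with the loess trend removed at -0.39 and -0.61. The direction of both thus rests on the scaling. These genes encode nearly the same protein, and whether their probes tell the 2 messages apart was not tested.

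Subunits of the Arp2/3 complex, which work together in a single particle, lay on both sides of 0. Of the 8 on the list, 5 had a probe and all 5 were kept, with a median of -0.18 and 2 above 0. The SD of their differences was 0.51. Between probes of the same gene it was 0.55 over kept genes and 0.44 at intensities of 50 or more. All probes of these subunits were that bright on both arrays. Arpc2, one of the core subunits, had 2877 at 0.5 M and 2295 at 0.3 M, a difference of 0.63. Arpc1b, the form of the p41 subunit that dominates in blood cells, had differences of 0.51 and 0.61 at its 2 probes (1407 and 209 at 0.5 M, 1217 and 169 at 0.3 M). Its mean was 0.56. Both genes were higher at 0.5 M in all 4 scalings.

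The other subunits were lower at 0.5 M in all 4 scalings. Arpc1a, the more widely expressed form of p41, had 306 at 0.5 M and 523 at 0.3 M (-0.47). Arpc5 had 1031 at 0.5 M and 1547 at 0.3 M (-0.29), and Actr3, the actin-related protein Arp3, had 202 and 281 (-0.18). Arpc1b stood 1.03 above Arpc1a in log2 difference, a gap that is the same as deposited and was 0.97 with quantile normalization and 0.99 with loess. Between any 2 probes a gap has a larger error than a single difference, and this one was not tested.

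Genes for monomer binding and filament turnover also lay on both sides of 0. Pfn1, profilin, which feeds actin monomers to growing ends, had 3088 at 0.5 M and 2764 at 0.3 M (0.46, but -0.05 with loess). Tmsb4x, thymosin beta 4, which stores monomers, had 2529 at 0.5 M and 2016 at 0.3 M (0.63, and 0.14 with loess). Cap1, a protein that helps recycle monomers, went the other way, with 51 at 0.5 M and 89 at 0.3 M (-0.50, and lower in all 4 scalings). Tmsb10, a close relative of Tmsb4x, was dim at 8 and 19 and was not kept.

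Capping protein was close to level when centred, and the coronins were higher at 0.5 M. Capza2, a capping protein alpha subunit, had 81 at 0.5 M and 105 at 0.3 M (-0.07, and -0.37 as deposited). It was lower in all 4 scalings. The beta subunit Capzb was dim at 12 and 14. Coro1a, the coronin of blood cells that T cells need for survival and migration, had 2614 at 0.5 M and 1746 at 0.3 M (0.88). Coro1b, a coronin found in many cell types, had 85 at 0.5 M and 63 at 0.3 M (0.73). Both coronins and Lcp1, the filament-bundling plastin of leukocytes (47 at 0.5 M and 45 at 0.3 M, 0.36), were higher in all 4 scalings, although the Lcp1 difference was only 0.06 as deposited.

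The widest spread lay among the genes that switch Arp2/3 on. Was, the Wiskott-Aldrich syndrome protein, had 212 at 0.5 M and 136 at 0.3 M, a difference of 0.94. Its partner Wipf1, known as WIP, which binds WASP and protects it from breakdown, had 2792 at 0.5 M and 8328 at 0.3 M. The difference for Wipf1 was -1.28 (2.42-fold lower), and only 0.645% of kept genes had a lower difference. Was and Wipf1 differed in direction in all 4 scalings, with a gap of 2.22 centred and 2.67 with loess.

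Differences below -0.6 were also found for other bright genes. This was looked for after the values had been seen, as was the limit used. Of the 265 kept genes with a mean centred log2 intensity of 6 or more, 43 (16.2%) had a difference below -0.6, against 10.4% of the dimmer kept genes. Of the 265, 30 lay between -1.2 and -0.8, 4 between -0.6 and -0.4, and only 1 was lower than Wipf1. Of the 11 members this bright, Wipf1 was the only one below -0.6. What these genes have in common was not tested.

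Rac2, Cdc42 and Rhoa were each higher at 0.5 M. Rac2, the Rac form of blood cells, had 1508 at 0.5 M and 927 at 0.3 M, a difference of 1.002 that only just reached 2-fold. Under the other 3 scalings it lay between 0.60 and 0.70. Cdc42, which activates WASP, had 171 at 0.5 M and 129 at 0.3 M (0.71), and Rhoa, which drives myosin contraction, had 66 and 64 (0.34, and 0.04 as deposited). Their direction was the same in all 4 scalings. Dock8, an activator of Cdc42, and Dock2, an activator of Rac, were dim (10 and 7 at 0.5 M, 9 and 12 at 0.3 M), and the second Dock2 probe had no value at 0.5 M and 10 at 0.3 M. Wasf2, a WAVE protein, was dim at 11 on both arrays.

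Nonmuscle myosin, the motor that contracts the actin cortex, was higher at 0.5 M for all 3 members and in all 4 scalings. Myl6, the essential light chain, had 7256 at 0.5 M and 5087 at 0.3 M (0.81, and 0.22 with loess). Myl12b, a regulatory light chain, had 866 at 0.5 M and 591 at 0.3 M (0.85). The heavy chain Myh9 had 62 at 0.5 M and 59 at 0.3 M (0.37, and 0.07 as deposited). The near relative Myl12a, not a member, was lower, with 116 at 0.5 M and 193 at 0.3 M (-0.43).

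**Figure D3:**
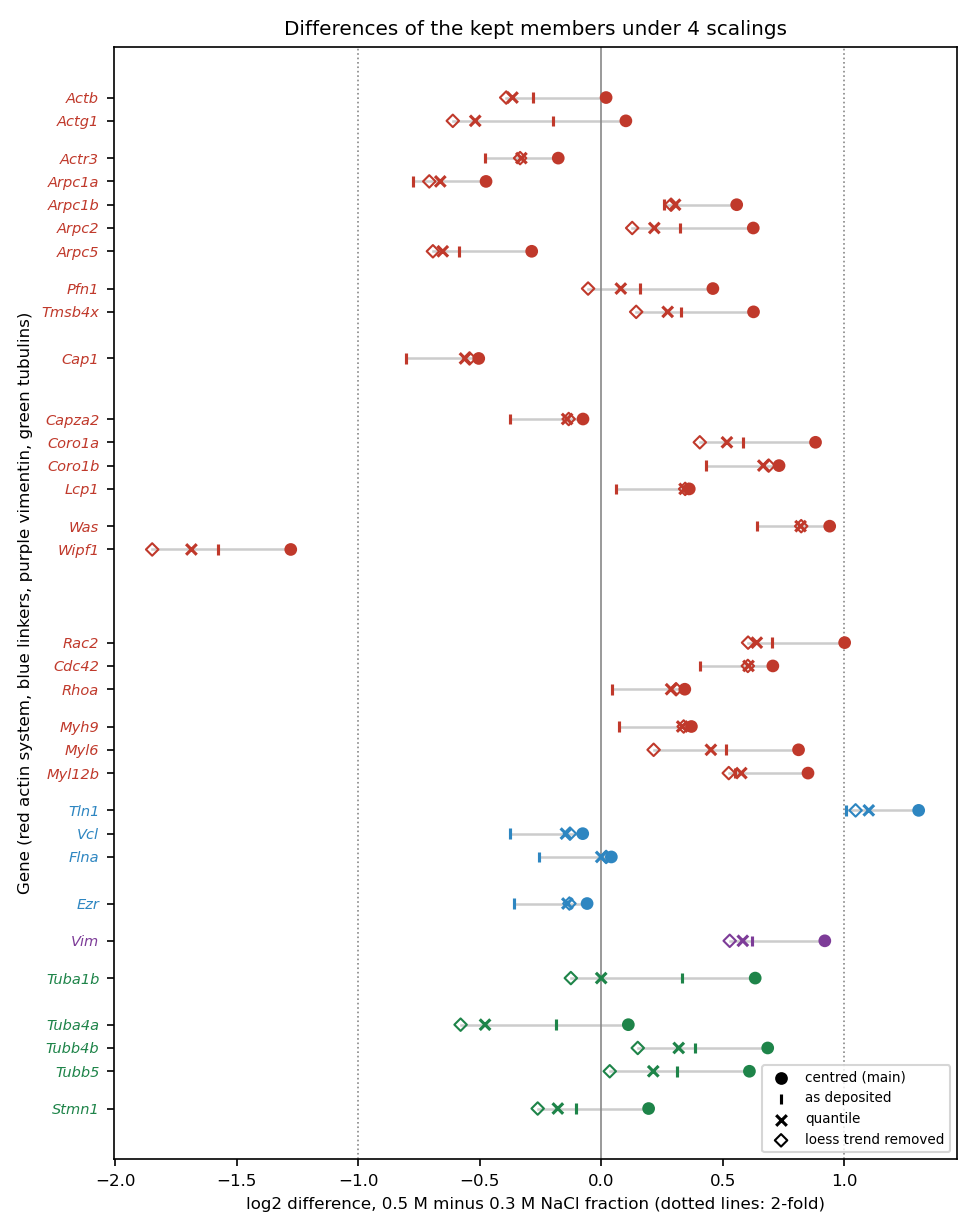
Log2 difference (0.5 M minus 0.3 M) of the 32 kept members under 4 scalings, with the genes in role groups from top to bottom. Filled circles are centred values, bars the values as deposited, crosses quantile normalization and open diamonds values with the loess trend removed. Wipf1 is past the dotted 2-fold line on the left and Tln1 past that on the right in all 4, whereas Rac2 touches the line only when centred.

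Among the linkers, talin stood alone. Tln1, which activates integrins and couples them to actin, had 665 at 0.5 M and 331 at 0.3 M. Its difference of 1.31 (2.47-fold) was the largest of the kept members, and 98.4% of kept genes had a smaller one. It was past 2-fold in all 4 scalings, at 1.01 as deposited, 1.10 with quantile normalization and 1.05 with loess. The other kept linkers were close to level when centred and somewhat lower at 0.5 M as deposited. Vcl, vinculin, which binds talin under tension, had 74 at 0.5 M and 96 at 0.3 M (-0.08, and -0.38 as deposited). Ezr, ezrin, had 96 and 123 (-0.06, and -0.36 as deposited), and Flna, the crosslinker filamin A, had 46 and 55 (0.04, and -0.26 as deposited). Vcl and Ezr were lower at 0.5 M in all 4 scalings, and Flna was not. Msn, moesin, an ERM protein abundant in lymphocytes, was dim at 12 and 8 and was not kept. The 4 kept linkers had a median of -0.01, and Tln1 stood 1.38 above Vcl.

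Vim, vimentin, the intermediate filament protein of lymphocytes and mesenchymal cells, had 1402 at 0.5 M and 912 at 0.3 M. The difference was 0.92 centred, 0.62 as deposited, 0.58 with quantile normalization and 0.53 with loess. Vim was thus higher at 0.5 M in all 4 scalings, below 2-fold in each.

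Tubulin probes were bright in both fractions, and the direction of several rested on the scaling. Tuba1b, a major alpha-tubulin, had 28935 at 0.5 M and 22955 at 0.3 M (0.63). Tubb5 and Tubb4b, both beta-tubulins, had 5592 and 4026 at 0.5 M and 4510 and 3082 at 0.3 M (0.61 and 0.69). With the loess trend removed, Tuba1b was at -0.12, Tubb5 at 0.04 and Tubb4b at 0.15, and Tubb5 and Tubb4b were higher in all 4 scalings. Tuba4a, another alpha-tubulin, had 13039 at 0.5 M and 14853 at 0.3 M, which is 0.11 centred and -0.58 with loess. Stmn1, stathmin, which binds free tubulin dimers, had 1772 at 0.5 M and 1905 at 0.3 M (0.20, and -0.26 with loess). Tuba1c was dim at 18 and 10. Alpha-tubulin genes are close copies in their coding parts, so their probes are not taken as independent.

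The actin system was then set against the tubulins and the linkers. The actin system (22 kept genes) had a median difference of 0.42, the tubulins with Stmn1 (5 kept) 0.61 and the linkers (4 kept) -0.01. The actin system ranged from -1.28 to 1.002, so it spanned every tubulin value and every linker value except that of Tln1. Its median was 0.19 below that of the tubulins when centred and as deposited, but 0.28 above with quantile normalization and 0.30 above with loess, so the order of these systems depends on the scaling. The actin system stayed above the linkers in each scaling, by 0.42 centred and as deposited, 0.35 with quantile normalization and 0.23 with loess. This order rests on 4 kept linkers. Among genes outside the members, given below, other linkers stood above other actin filament regulators in each scaling. Other tubulins did so too, with medians of 0.54 centred, 0.24 as deposited, 0.46 with quantile normalization and 0.47 with loess. No linker of the member list was among the brightest 10% of genes, against 11 of 22 actin system genes and all 5 of the tubulin group.

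**Figure D4:**
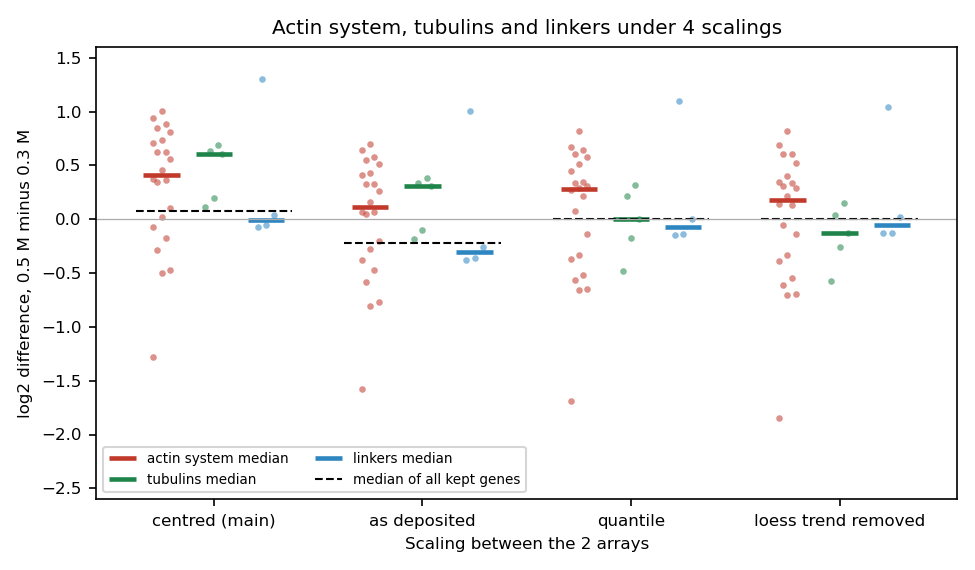
Log2 differences (0.5 M minus 0.3 M) of the kept actin system genes (22, red), tubulins with Stmn1 (5, green) and linkers (4, blue) under 4 scalings. Points are genes, thick bars the median of each system and dashed lines the median of all kept genes. The actin median is below the tubulin median when centred (0.42 against 0.61) and above it with loess (0.18 against -0.12).

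Genes of the same systems outside the member list are given from 7 lists. Of their 192 genes, 87 were kept, with a median difference of 0.19, and 5 were at least 2-fold higher and 5 at least 2-fold lower (11.5% past 2-fold), beside the 5.24% and 2.35% of all kept genes given above. As deposited 3 were higher and 9 lower with a median of -0.11, and with quantile normalization or loess 3 were higher and 7 lower with a median of 0.07. Other actin filament regulators (27 kept) had a median of 0.05. Gsn, the filament-severing gelsolin, led with 322 at 0.5 M and 129 at 0.3 M (1.62), ahead of Hip1 (1.41) and the capping protein Capg (0.83). At the low end were Actn4, a crosslinking actinin, with 8102 at 0.5 M and 20032 at 0.3 M (-1.01), Coro7 (-1.002) and Gmfb (-0.97). All 6 kept their direction in all 4 scalings, but they were picked for large differences on the same arrays. Over all kept genes 33.6% were higher and 44.1% lower in all 4.

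The list of other myosins (7 kept), which also holds the phosphatase subunit gene Ppp1cb, had a median of -0.22. Myo1f was at 0.87, Ppp1cb at 0.56 and Myl6b at 0.42. Lowest were Myl12a, Myh14 (-0.38) and Myo1e (-0.27). Other linkers (7 kept) had a median of 0.21, and -0.09 as deposited, 0.12 with quantile normalization and 0.13 with loess. Other actin filament regulators had 0.05, -0.25, -0.07 and -0.05 in these settings, the reverse of the order among the members. Fermt3, the kindlin of blood cells that activates integrins with talin, had 851 at 0.5 M and 547 at 0.3 M (0.94), Ilk was at 0.64 and Parvg at 0.45. At the low end were the focal adhesion protein Pxn (-0.39), Rdx (-0.06) and Slc9a3r1 (0.13).

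Other tubulins (11 kept) had a median of 0.54, and 0.47 with loess. Tuba3a (28 at 0.5 M and 18 at 0.3 M, 0.94), Tubg1 (0.76) and Tuba3b (0.71) were highest, and Tube1 (38 and 94, -1.01), Tubb3 (-0.13) and Tubg2 (-0.06) lowest. Microtubule regulators and motors (27 kept) had a median of 0.21. Tbca, a chaperone of beta-tubulin, had 92 at 0.5 M and 42 at 0.3 M (1.43), and the dynein chain genes Dynlt1b (1207 and 632, 1.23) and Dync1h1 (0.87) came next. The low end held the severing enzyme Spast (-1.06), the dynein chain gene Dync1li1 (2314 and 5720, -1.01) and Stmn4 (-0.64). Dynein subunits were thus at both ends of that list, each on 1 probe.

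Intermediate filaments and lamins had 3 kept genes, Lmnb1 (-0.72), Nefl (-0.23) and Lmnb2 (0.10). The list of muscle and smooth muscle genes with their relatives had 5, not all of them particular to muscle. They were Tagln2 at 1.01 (2508 at 0.5 M and 1528 at 0.3 M), Cnn2 at 0.60, Cnn3 at 0.37, Tnnt1 at -0.08 and Myl7 at -0.90. The smooth muscle markers Acta2 (13 at 0.5 M and 9 at 0.3 M) and Myh11 (10 on both arrays) were dim.

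**Figure D5:**
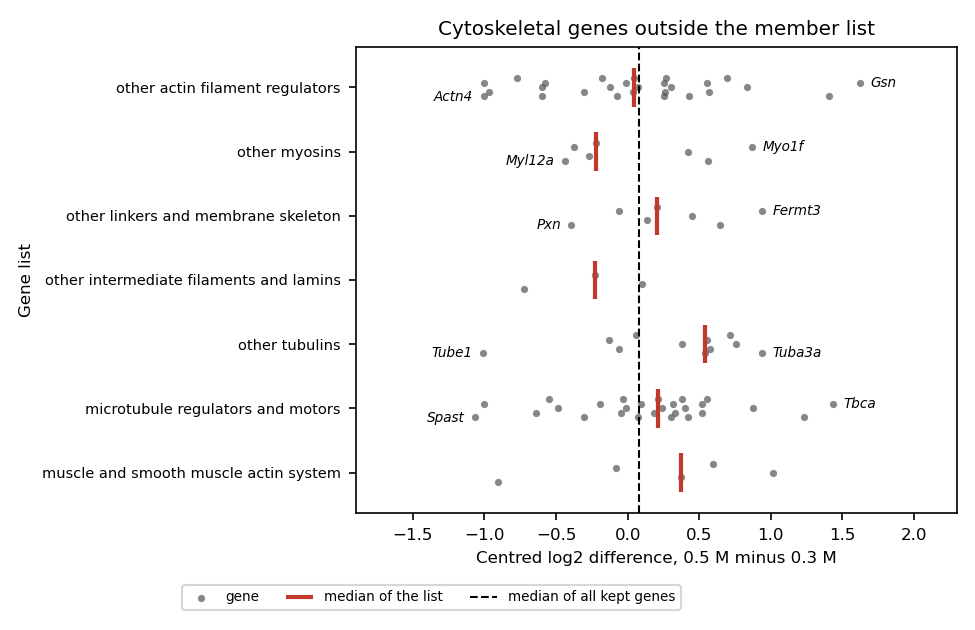
Centred log2 difference (0.5 M minus 0.3 M) of kept cytoskeletal genes outside the member list, with a row for each of 7 lists. Points are genes, red bars the median of each list and the dashed line the median of all kept genes, 0.08. The genes at the ends of lists with at least 6 kept genes are named, from Spast at -1.06 to Gsn at 1.62.

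Markers of the cells themselves were checked beside these genes. Of 13 CTL markers 12 had a probe, and their summed intensity was 10691 at 0.5 M and 10435 at 0.3 M. All marker sums take the brightest probe of a gene on each array. Of the 11 kept, 9 were higher at 0.5 M when centred, against 55.9% of all kept genes. The 11 had a median difference of 0.60 centred, 0.30 as deposited, 0.31 with quantile normalization and 0.32 with loess. All kept genes had medians of 0.08, -0.22, 0 and -0.0017 in these settings, and the brightest 10% of them had 0.46 when centred. Cd8a was bright and lower at 0.5 M (2463 and 3677, -0.28), and Cd3e (14 and 12) was near the dim end. B cell markers summed to 549 at 0.5 M and 381 at 0.3 M over 5 of 8 with a value, where Pax5 and Cr2 had a value on neither array. Of the 3 kept, Cd79b (328 and 94, 2.10) and Blnk (63 and 26, 1.58) were at least 2-fold higher at 0.5 M. Cd22 was lower (126 and 225, -0.54). Myeloid and MHC class II markers summed to 1523 and 707 over 10 of 12, where Adgre1 and Itgam had none. Of the 7 kept, the MHC class II genes H2-Aa, H2-Eb1 and Cd74 and their activator Ciita were at least 2-fold higher at 0.5 M, against 5.24% of all kept genes. Mrc1 was at least 2-fold lower (-1.27), and the myeloid genes Csf1r (0.33) and Cd68 (0.38) were less than 2-fold apart. Red cell and platelet markers summed to 7989 and 17236 over 7 of 11, almost all of it globin and with Itga2b empty on both arrays, and fibroblast, smooth muscle and endothelial markers to 413 and 470 over the 9 of 11 with a value on both arrays. B and myeloid cells also make Coro1a, Rac2, Was and Lcp1. The part of other cells' RNA in the cytoskeletal differences was not tested, and fewer vesicles of a kind cannot be told apart from less RNA in each.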

How the data were processed

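Amplified RNA carried the dye Cy5, per the labels' protocols. The authors deposited whole-number probe intensities that are linear and have a median of 25 in both columns. The sources used here do not give the scanner, background correction, normalization or rule for empty cells. The number of arrays limits the precision. Symbols came from the array annotation, updated by Entrez identifier (20556 probes) or accession (9) against RefSeq genes of GRCm38.p6, and 125 kept the annotation's symbol. A symbol was available for 20690 probes and not for 2783. Probes with a value on both arrays were log2-transformed and centred on their median, and probes of a gene were averaged. Intensities given for Arpc1b are per probe, and marker sums take the brightest probe of each gene on each array. The steps were tested on simulated data with known shifts. Python 3.11.15, numpy 2.4.6 and pandas 2.3.3 were used.

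Members and gene lists were chosen with earlier results of these data known. All members are accounted for. From each other list, the 3 highest and 3 lowest kept genes are named, or all where fewer than 6 were kept. The loess span was 0.3 and the pseudocount 16. A further list of other genes is not reported here. Probe and protein sequences are not used here.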

Additional observations from a re-analysis of the deposited data

How the results depend on the processing

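The fractions had 1 array each, so no replicate could be left out. No paired analysis was possible because each fraction has a single sample. Counts of members at least 2-fold higher were 2 when centred and 1 with the values as deposited, quantile normalization, loess or the pseudocount, Tln1 in each, and 3 with no filter, which added the dim Tuba1c. Wipf1 was the 1 member at least 2-fold lower in each setting. The median of all members was 0.12 as deposited, 0.22 with quantile normalization, 0.081 with loess, 0.30 with the pseudocount and 0.58 with the stricter filter. For the actin system it was 0.12, 0.28, 0.18 and, with the stricter filter, 0.56. The tubulin median was 0.31 as deposited, 0 with quantile normalization and -0.12 with loess. The linker median was -0.31 as deposited and 0.042 with no filter on dim genes. The actin system minus tubulins turned to 0.28 with quantile normalization and 0.30 with loess. As deposited, the lists of other genes had medians of -0.25 (actin filament regulators), -0.52 (myosins), -0.093 (linkers), -0.089 (microtubule regulators), 0.24 (tubulins) and 0.072 (muscle genes and relatives). Actin filament regulators were at -0.067 with quantile normalization, -0.048 with loess, -0.035 with the pseudocount and 0.25 with the stricter filter. Microtubule regulators were at 0.35 with the stricter filter, other tubulins at 0.36 with the pseudocount and other myosins at 0.039 with no filter. The as-deposited shifts follow from leaving out the centring, and for the others the cause was not tested. The planned relation to protein length was not run, since no protein table was used. Dim genes are limited by the unequal empty cells.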

Other observations

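Several cytoskeletal genes come as relatives, of which one is mainly made by blood cells and another by many tissues. Of 15 such pairs, 7 had both genes kept, and in these 7 the blood cell gene had the higher centred difference. These were Arpc1b over Arpc1a (1.03), Coro1a over Coro1c (0.58) and over Coro1b (0.15), Abi3 over Abi2 (2.24), Rac2 over Rac1 (0.87), Gmfg over Gmfb (0.39) and Myo1f over Myo1e (1.14). With quantile normalization and with loess the order held in 6 of the 7, and Coro1a minus Coro1b was -0.15 and -0.28. The pairs were put together after values had been seen, so the count is a description with no test.

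The blood cell genes were not all higher at 0.5 M. Of the 12 kept, 10 had a centred difference above 0, against 55.9% of all kept genes, with a median of 0.71, from -0.58 for Gmfg (25 at 0.5 M and 46 at 0.3 M) to 1.002 for Rac2. Of the 8 kept genes of many tissues, 3 were above 0 when centred, with a median of -0.37. Those were Rac1 (1218 at 0.5 M and 1371 at 0.3 M, 0.13), Coro1c (260 on both arrays, 0.30) and Coro1b. As deposited, Rac1 was thus lower at 0.5 M and Coro1c was level. Hcls1, the cortactin relative of blood cells, stood 0.57 below Cttn, which was dim at 6 and 5.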
